A study of Mus musculus with 34 samples.

Results

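The livers of hormone-replaced goitrogen pups (hypo+) were compared with those of control pups. The comparison comprised 15 of the 34 arrays of the series, 7 of hypo+ pups (4 males and 3 females) and 8 of control pups (4 of each sex), chosen by the treatment that the labels give. All pups were C57BL/6 mice at PND 15. Hypo+ pups had been exposed for 3 days through their dams, whose drinking water held methimazole (0.05%) and perchlorate (1%). They then received one intraperitoneal injection of T4 (20 μg per 100 g of body weight) with T3 (2 μg per 100 g) and were killed 4 h later. Control pups received saline and no goitrogen. The 9 hypo pups, other animals with the same goitrogen exposure followed by saline, stood for the state without the hormone. Wording below such as before or after the hormone, remained, overshot and moved back compares these parallel groups. It does not follow the same pups over time. Pups given the hypo+ injection whose serum T4 rose further were set apart by the study and are not analysed here. The hypo+ pups are therefore a group selected on serum T4. The study reports that their serum T4 was significantly above that of controls, and elsewhere describes it as close to control or a little higher. Replacement here thus does not mean a return to control T4. The 10 hyper pups, which had no goitrogen and a larger injection (T4 at 50 μg and T3 at 5 μg per 100 g), entered the model and share its estimate of the spread.

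Methimazole blocks the thyroid peroxidase that builds thyroid hormone, and perchlorate blocks the uptake of iodide by the thyroid. Thyroid hormone acts in the liver mainly through the receptor TRβ, which sits on DNA with RXR, represses its targets with corepressors when no hormone is bound and activates them when T3 binds. Well-known targets include Dio1, the deiodinase that turns T4 into T3, the lipogenic regulator Thrsp and the malic enzyme Me1. The liver also carries the NRF2 programme, a transcription factor response to electrophiles and oxidants that raises glutathione S-transferases, quinone reductases and export pumps, and the juvenile liver is still growing, so that genes of DNA replication and mitosis are expressed.

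Each array compared the RNA of 1 pup, labelled with Cy5, with a universal mouse reference RNA, labelled with Cy3. Levels are given below as log2 ratios of pup to reference after loess normalization, which cannot be compared between genes, and differences are differences of such ratios (log2). The median Cy5 signal of an array lay between 150 and 191 in control and between 146 and 199 in hypo+ pups, and between 63.6% and 79% of the spots of control arrays and between 63% and 79.4% of those of hypo+ arrays were well above background. The number of arrays limits the precision. Of the liver's own markers, the mean level of 10 hepatocyte markers was 4.37 to 5.66 in control and 5.06 to 5.76 in hypo+ pups. The 24 pancreatic acinar markers on the array had a mean level of 0.60 to 0.74 in 11 of the 15 pups, 3.03 in control 831, 3.79 in control 522, 4.07 in control 832 and 1.86 in hypo+ 543. These 4 pups therefore stand apart, and counts are also given without them. By the first digits of the animal numbers, which is an inference, the control pups came from 4 litters and the hypo+ pups from 5. Littermates are treated as independent in the model, and p-values measure the spread between these pups.

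After hormone replacement, 280 genes were higher than in controls (0.842% of the 33236 genes tested) and 223 were lower (0.671%) at an adjusted p below 0.05 in limma, where a gene is called when any of its probes passes. The changes were small. The fold-change of the called probes ran from 1.11 to 2.71 with a median of 1.26, and 9 genes changed by at least 2-fold. Before the hormone, the hypo pups had 231 genes higher (0.695%) and 226 lower (0.68%) than the same controls. Between hypo+ and hypo pups, 644 genes were higher (1.94%) and 666 lower (2%) after the injection. The number of called genes rests on a few pups and on the normalization. Without the 4 pups that carried acinar markers, 53 genes were called higher and 18 lower, of which 52 and 16 were among those above. When loess was replaced by subtracting the array median, limma called 8 genes higher and 0 lower, with 1635 probes at an unadjusted p below 0.05 as against 4885 of 41174 with loess. The balance of higher to lower calls moved with the scaling too, with 260 higher and 132 lower in the authors' table and 126 higher and 51 lower in the Cy5 channel alone.

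The called genes fell into groups by their state before the hormone. There were 42 genes that remained altered, being called in the same direction in hypo and in hypo+ pups (30 higher and 12 lower). A further 275 overshot, being called against control and in the same direction against hypo pups without being called in that direction before the hormone (147 higher and 128 lower). This class does not require a change before the hormone. Of the 147, 33 had been called lower in hypo pups, and of the 128, 2 had been called higher. The median difference between hypo and control pups was -0.08 over the 147 and -0.02 over the 128. In the opposite class, 220 genes that were altered in hypo pups (95 higher and 125 lower) were called as moving back towards control and were not called in hypo+ pups. The remaining 186 called genes were called in neither of the other comparisons. These classes share pups by construction. The first rests on the control pups in both comparisons and the second on the hypo+ pups, so that the classes describe the genes and are not independent evidence for them.

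**Figure D1:**
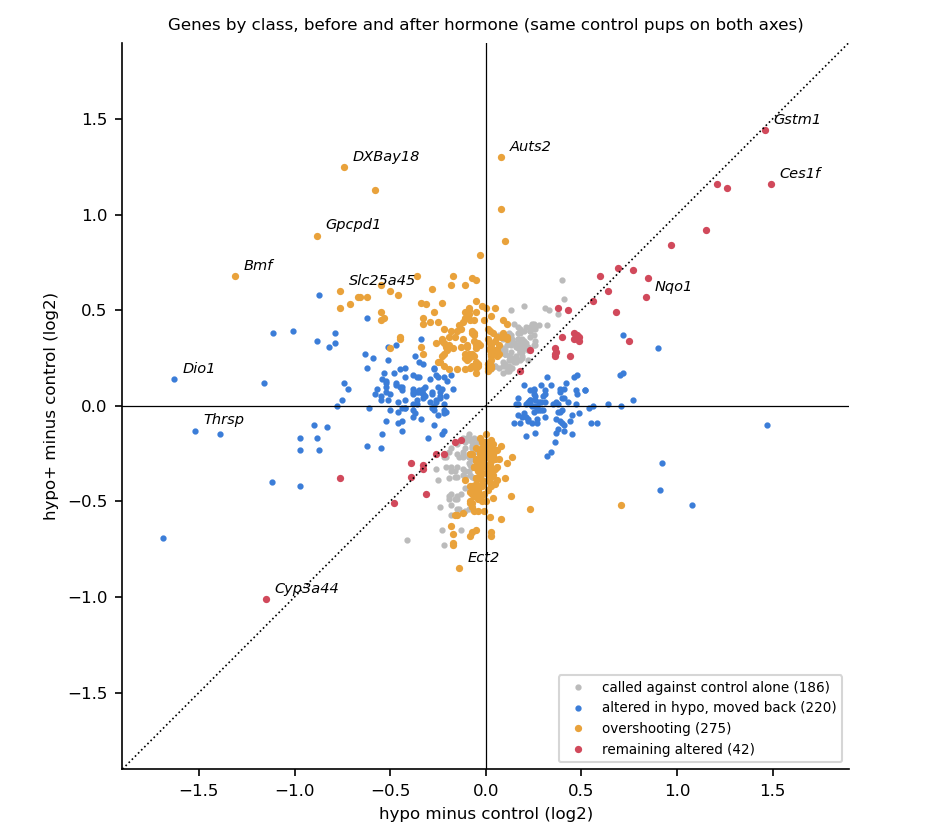
Each point is a gene, with the log2 difference between hypo and control pups on the x axis and that between hypo+ and control pups on the y axis, coloured by class, and the dotted line marks equal differences. The 42 genes that remained altered lie along the line, with Gstm1 at 1.46 and 1.44. The 275 overshooting genes lie above and below the horizontal axis, from 0.17 and from -0.15 outwards. The 220 genes that moved back lie on both sides of that axis, between -0.69 and 0.58. The last 2 classes therefore overlap in their distance from it. Both axes use the same control pups.

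The glutathione S-transferases, which conjugate electrophiles to glutathione, led the genes that remained higher. The level of Gstm1, the most changed member, was 1.97 to 2.45 in the control pups (median 2.21), 3.11 to 4.16 in the hypo pups (median 3.69) and 3.32 to 4.02 in the hypo+ pups (median 3.66). Every hypo and hypo+ pup lay above every control pup. The difference was 1.44 (SE 0.13, 2.71-fold, adjusted p = 4.34e-08 in limma), and it was 1.46 in hypo pups. Between hypo+ and hypo pups it was -0.02, with a 95% interval from -0.29 to 0.24. A level of Gstm1 lower by more than 0.29 in hypo+ than in hypo pups thus lies outside that interval. Within the 5 slides that held a control and a hypo+ pup of the same sex, the hypo+ pup was higher on each, by 0.96 to 1.71. Gstm1 was called under each of 17 alternative settings, at 1.14 to 1.53, and whichever single pup was left out. In hyper pups, which had hormone without goitrogen, its difference from control was -0.30 (adjusted p = 0.469).

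Gstm3, another mu-class enzyme, ran from 1.92 to 2.27 in control pups (median 2.13) and from 2.94 to 3.5 in hypo+ pups (median 3.32). Its levels did not overlap, its difference was 1.16 (SE 0.11, adjusted p = 4.34e-08) as against 1.21 in hypo pups, and the interval of the difference between hypo+ and hypo was -0.26 to 0.16. Of the 7 mu-class genes on the array, 2 were called higher in hypo+ pups and 4 in hypo pups, and the median difference over the 7 genes was 0.23 and 0.47 (0 over all genes in both comparisons). Gstm4 was the only mu-class gene called lower in hypo+ than in hypo pups, with a difference of 0.46 in hypo (adjusted p = 0.000885) and 0.15 in hypo+ pups (adjusted p = 0.544). Gstm6 was 0.48 higher in hypo pups (adjusted p = 0.0216), with a value of 0.25 in hypo+ pups (adjusted p = 0.409). Mu-class sequences are alike, so that probes may read more than 1 member.

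Of the 14 other glutathione transferases on the array, 4 were called higher in hypo+ pups (0.842% over all genes) and 0 lower, all 4 being among those that remained altered. The count fell to 1 without the 4 pups with acinar markers, to 2 with the slide as a fixed block or in the Cy5 channel alone, and to 0 after subtraction of the array median and in each sex alone. The pi-class enzyme Gstp1 rose by 0.60 (SE 0.09, adjusted p = 0.000151), from -0.57 to -0.19 in control pups to 0.05 to 0.42 in hypo+ pups without overlap. Gstt2, of the theta class, rose by 0.55 (SE 0.09, adjusted p = 0.000874). Gsta4, which conjugates the lipid peroxidation product hydroxynonenal, rose by 0.27 (SE 0.05, adjusted p = 0.00953), and the microsomal enzyme Mgst1 by 0.26 (SE 0.05, adjusted p = 0.012). Second probes of Gstp1 (0.47, adjusted p = 0.00274) and Gstm1 (0.99, adjusted p = 1.56e-07) were also called, whereas that of Mgst1 gave 0.22 (adjusted p = 0.301).

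The 19 NRF2 targets on the array showed 12 genes called higher in hypo pups (0.695% over all genes) and 6 in hypo+ pups (0.842%), with 0 lower in either. The median difference was 0.38 in hypo and 0.26 in hypo+ pups, and 18 of 19 genes were above 0 after the hormone (15715 of 33236 over all genes). The median of the 10 hepatocyte markers was 0.06 in hypo and 0.24 in hypo+ pups. Only Ugdh, which makes UDP-glucuronic acid, was called lower in hypo+ than in hypo pups (-0.32, adjusted p = 0.00484). Over the list, the mean level of a pup was -0.40 to -0.23 in controls and -0.03 to 0.27 in hypo+ pups, and on each of the 5 slides that held both treatments it was higher in the hypo+ pup, by 0.22 to 0.37. The count fell to 3 of 19 with the slide as a fixed block, to 4 without the 4 pups with acinar markers and to 0 in either sex alone or after subtraction of the array median instead of loess, where the median difference was 0.07.

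Of the 6 called genes of the NRF2 list, the microsomal epoxide hydrolase Ephx1 was the most changed. Gstm1 and Gstm3, placed in a separate list here, changed more (1.44 and 1.16). The values of Ephx1 were spread widely. It ran from -1.88 to 0.25 in control pups (median -0.46) and from -0.06 to 1.31 in hypo+ pups (median 0.73). The groups overlapped, and control 522, at -1.88, lay far below the next control at -0.63. The difference was 1.14 (SE 0.22, adjusted p = 0.0066), it was 0.94 to 1.27 when each pup was left out in turn, and a second probe gave 1.08 (adjusted p = 0.00963). Aox1, an aldehyde oxidase, rose by 0.92 (SE 0.16, adjusted p = 0.003) from at most 0.45 in control pups to at least 0.67 in hypo+ pups.

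Nqo1, the quinone reductase that serves as a standard readout of NRF2, was -1.35 to -0.89 in control pups (median -1.12), -0.68 to 0.23 in hypo pups (median -0.18) and -0.75 to -0.19 in hypo+ pups (median -0.53). Each treated pup of both groups lay above each control. The difference from control was 0.84 in hypo and 0.57 in hypo+ pups (SE 0.12, adjusted p = 0.0106), and that between hypo+ and hypo was -0.27, not called after adjustment (adjusted p = 0.225), with an interval of -0.51 to -0.04. Srxn1, which reduces over-oxidized peroxiredoxins, was 0.68 higher in hypo and 0.49 higher in hypo+ pups (SE 0.07, adjusted p = 0.000191), with -0.19 between hypo+ and hypo (adjusted p = 0.166, interval -0.33 to -0.04). Its other probes gave 0.21 (adjusted p = 0.171) and 0.28 (adjusted p = 0.0704). Cbr1, a carbonyl reductase, rose by 0.72 (adjusted p = 0.000766), and Abcc3, which exports conjugated organic anions to the blood, by 0.68 (adjusted p = 0.0159). The dimmer probe of Abcc3 gave 0.21 (adjusted p = 0.0774 in limma).

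**Figure D2:**
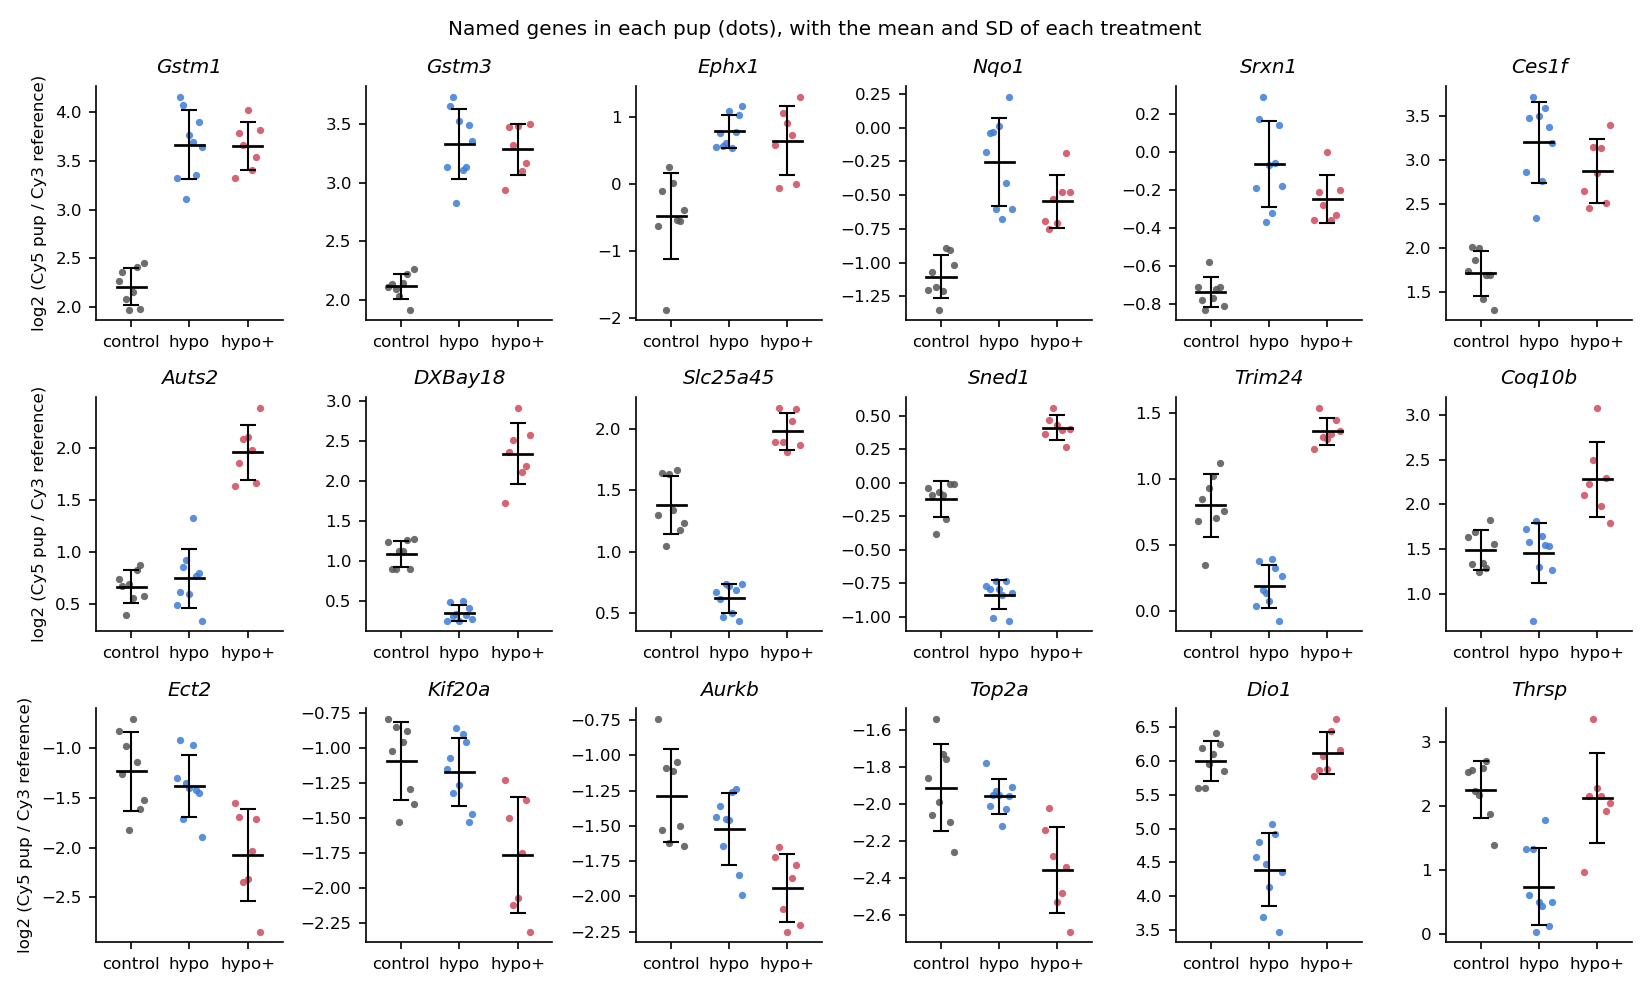
Each dot is the log2 ratio of Cy5 to Cy3 of a pup for a gene, with the mean and SD of each treatment as bars, on its own vertical scale. The top row holds genes that remained higher (Gstm1 is 1.97 to 2.45 in control and 3.32 to 4.02 in hypo+ pups). The middle row holds genes that overshot upwards (Auts2 is at most 0.88 in control and at least 1.64 in hypo+ pups). The bottom row holds cell-division genes that were lower and the hormone targets Dio1 and Thrsp, which were not called between hypo+ and control pups.

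Beyond these lists, Ces1f, a liver carboxylesterase, was 1.3 to 2.01 in control and 2.45 to 3.4 in hypo+ pups, with a difference of 1.16 (SE 0.18, adjusted p = 0.000629) as against 1.49 in hypo pups. It was not called in males alone or from the scanner's own ratios. Pir, an iron-containing nuclear protein, rose by 0.84 (SE 0.12, adjusted p = 0.000146) without overlap of the groups. The antisense transcript Hnf4aos was 0.71 higher (adjusted p = 0.0301), and its call was lost without any of control 522, 523 and 832 and hypo+ 363 and 601. Bmp6, the ligand through which the liver senses iron, rose by 0.36 (adjusted p = 0.0156), with -0.09 from its dimmer probe. The collagen gene Col5a3 (0.34, adjusted p = 0.027) was the only gene of the 30 that was also called lower in hypo+ than in hypo pups. Over the 30 genes the median difference from control was 0.53 in hypo and 0.50 in hypo+ pups, and 6 of the 30 were higher in hypo+ than in hypo pups. On all 5 slides that held both treatments, the hypo+ pup was the higher one for 26 of the 30 genes, and these arrays are among those that chose them.

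Among the 12 genes that remained lower, the largest difference was that of Cyp3a44, a cytochrome P450, with 5.89 to 7.10 in control and 4.53 to 6.16 in hypo+ pups and a difference of -1.01 (SE 0.27, adjusted p = 0.0487). The groups overlapped, its brighter probe gave 0.15 (adjusted p = 0.815), genes of its family are close in sequence, and it was called in 5 of 17 alternative settings. The median over the 12 genes was -0.33 in hypo and -0.32 in hypo+ pups. None of these 12 remained lower with normexp background correction, where 1 other gene did, and 0 genes remained lower in the model of litter means or without the 4 pups with acinar markers.

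The genes that remained higher were chosen for being higher in both groups, so that their moving together is not a finding. Their promoters were searched for the core of the antioxidant response element to which NRF2 binds, TGACNNNGC, and for a variant, TGAGNNNGC. The search covered both strands of the 250 bases before the first start listed in RefSeq (GRCm38.p6). Of the 30 genes, 20 have a promoter in the table, and 8 of the 20 (40%) hold at least 1 of these motifs. The share was 22.8% over all 27025 promoters, 24.3% for 74 genes that overshot upwards, 33% for 88 that overshot downwards and 62.5% for 8 that remained lower, so that the motif is not limited to the genes that remained higher. The promoters of Srxn1 (chr2:152105274-152105523 on the forward strand), Gstp1 (chr19:4037913-4038162 on the reverse strand) and Pir (chrX:164269181-164269430 on the forward strand) are shown as genes with a match, in capitals, and that of Gstm1 (chr3:108017974-108018223 on the reverse strand) as the most changed gene, without one. All run 5′ to 3′ on the strand of the gene.
Srxn1: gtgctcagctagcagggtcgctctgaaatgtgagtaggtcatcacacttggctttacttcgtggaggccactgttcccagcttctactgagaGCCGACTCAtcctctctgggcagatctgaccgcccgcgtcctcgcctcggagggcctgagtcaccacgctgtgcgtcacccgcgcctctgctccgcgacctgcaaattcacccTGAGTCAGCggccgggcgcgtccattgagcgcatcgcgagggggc
Gstp1: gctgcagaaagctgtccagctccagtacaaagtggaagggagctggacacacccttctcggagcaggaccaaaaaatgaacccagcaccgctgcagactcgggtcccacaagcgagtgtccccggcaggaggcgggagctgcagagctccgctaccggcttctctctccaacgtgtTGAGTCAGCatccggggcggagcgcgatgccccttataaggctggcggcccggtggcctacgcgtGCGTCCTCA
Pir: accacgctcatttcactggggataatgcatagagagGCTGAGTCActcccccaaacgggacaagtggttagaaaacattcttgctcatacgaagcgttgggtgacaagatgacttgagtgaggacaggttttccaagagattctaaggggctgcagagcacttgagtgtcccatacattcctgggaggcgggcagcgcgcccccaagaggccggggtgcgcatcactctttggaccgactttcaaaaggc
Gstm1: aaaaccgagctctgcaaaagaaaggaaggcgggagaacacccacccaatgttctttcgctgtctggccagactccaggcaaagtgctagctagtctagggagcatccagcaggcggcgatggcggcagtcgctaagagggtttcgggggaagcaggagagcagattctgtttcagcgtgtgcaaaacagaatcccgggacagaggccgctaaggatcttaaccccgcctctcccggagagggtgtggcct
The run TGAGTCAGC lies 45 bases before the start in Srxn1 and 74 bases before it in Gstp1, counted from its first base, and Pir holds the same kind of motif on the opposite strand, as GCTGAGTCA, 214 bases before the start. The search says only which letters are in these windows.

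Auts2, a nuclear protein of developing neurons with a role in transcription, led the genes that overshot. Its probe, designed on the transcript AK147478, was 0.40 to 0.88 in control pups (median 0.68) and 1.64 to 2.39 in hypo+ pups (median 1.98). All hypo+ pups lay above all controls, whereas hypo pups, at 0.34 to 1.33 (median 0.77), overlapped with them. The difference from control was 1.3 (SE 0.12, 2.46-fold, adjusted p = 4.34e-08) and that from hypo was 1.22 (adjusted p = 7.37e-09), as against 0.08 between hypo and control (adjusted p = 0.978). Auts2 was called in all 17 alternative settings, and its dimmer probe gave 0.19 (adjusted p = 0.0159). The transcript AK044145 rose by 1.03 (SE 0.13, adjusted p = 2e-05), with 0.08 in hypo pups (adjusted p = 0.979).

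The gene listed as DXBay18 passed from below control to above it. It was 0.90 to 1.27 in control pups (median 1.12), 0.25 to 0.50 in hypo pups (median 0.32) and 1.73 to 2.92 in hypo+ pups (median 2.37). The 3 groups did not overlap, with all hypo pups below and all hypo+ pups above the controls. The difference between hypo and control was -0.74 (adjusted p = 0.00014), that between hypo+ and control 1.25 (SE 0.12, adjusted p = 6.87e-08), and a second probe gave 0.94 in hypo+ pups (adjusted p = 6.43e-06). In hyper pups, Auts2 was 1.62 (adjusted p = 1.75e-11) and DXBay18 0.94 (adjusted p = 1.84e-06) above the same controls, so that both rose with hormone given to pups without goitrogen.

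Altogether 33 of the 147 genes that overshot upwards had been called lower in hypo pups. Slc25a45, a mitochondrial carrier, ran from 1.05 to 1.66 in control pups, from 0.44 to 0.74 in hypo pups and from 1.81 to 2.17 in hypo+ pups, with differences from control of -0.76 and 0.60 (SE 0.09, adjusted p = 0.000137). Sned1, a matrix protein, differed from control by -0.71 in hypo and 0.53 in hypo+ pups (SE 0.06, adjusted p = 3.94e-06), and the nuclear coregulator Trim24 changed by -0.62 and 0.57 (SE 0.08, adjusted p = 0.000137). The hypo+ pups lay above all controls for these 3 genes, and the hypo pups lay below all controls for Slc25a45 and Sned1. All 3 genes were also higher in hyper than in control pups, by 0.87, 0.56 and 0.59. Gpcpd1, a phosphodiesterase of glycerophosphocholine, changed by -0.88 and 0.89 (SE 0.17, adjusted p = 0.00434), and its other probes gave 0.94 and 0.76, both called. Bmf, a pro-apoptotic BH3-only protein, changed by -1.31 and 0.68 (SE 0.17, adjusted p = 0.0358), and its dimmer probes gave 0.06 and 0.15. The call of Bmf was lost in 8 of 17 alternative settings and, on 1 of the 5 slides that held both treatments, the hypo+ pup was the lower one.

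The promoter of Slc25a45 (chr19:5877572-5877821 on the forward strand) is shown because it holds the nuclear receptor core motif AGGTCA, in capitals. The motif was found in 8 of the 74 promoters of genes that overshot upwards (10.8%) and in 13.8% of all promoters. The thyroid response element that the paper reports for Slc25a45 is another sequence, which lies further upstream, outside the bases shown. Receptor binding at the AGGTCA shown here was not tested.
Slc25a45: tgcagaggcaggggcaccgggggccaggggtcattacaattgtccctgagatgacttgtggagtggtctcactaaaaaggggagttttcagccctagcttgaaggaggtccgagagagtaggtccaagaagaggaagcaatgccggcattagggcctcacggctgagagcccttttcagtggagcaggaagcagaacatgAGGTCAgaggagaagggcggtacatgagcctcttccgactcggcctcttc

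The study chose 28 genes on these same samples for a pattern of direct hormone response, so that their direction is not independent evidence here: 26 were called higher and 1 lower, with a median of 0.46. Of them, Arl4d, a small GTPase, rose by 0.86 (adjusted p = 0.00615) and Coq10b, a coenzyme Q binding protein of mitochondria, by 0.79 (adjusted p = 0.00327), each with a value near 0 in hypo pups (0.10 and -0.03). The transcript 4633401B06Rik rose by 0.68 (adjusted p = 2.11e-05) and Serpina9, a serpin, fell by 0.70 (adjusted p = 0.0315). Outside that list, AK009137 (1.13, adjusted p = 0.00367), the signal recognition particle receptor Srpr (0.67, adjusted p = 0.0382) and the lipid droplet protein Pnpla3 (0.68, adjusted p = 0.0418) were among the 20 largest increases. Both other probes of Srpr gave 0 and -0.12, and Pnpla3 was not called in 9 of 17 alternative settings.

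The hepatic thyroid hormone targets rose after the injection in 11 of 20 genes. In hypo pups 0 of the 20 were called higher than control (0.695% over all genes) and 6 lower (0.68%), with a median of -0.33. Between hypo and hypo+ pups 11 were called higher (1.94% over all genes) and 0 lower (2%), with a median of 0.30. Against control, 3 were called higher in hypo+ pups (0.842% over all genes) and 0 lower (0.671%), with a median of 0.16. Me1 changed from -0.45 in hypo to 0.35 in hypo+ pups (SE 0.09, adjusted p = 0.0383), Bcl3, a transcriptional cofactor of NF-κB, from -0.76 to 0.51 (adjusted p = 0.0394), and Idh3a, a subunit of isocitrate dehydrogenase, from -0.34 to 0.31 (adjusted p = 0.0447). These 3 calls lay close to the threshold and were lost with the litter as a random block or without the hyper arrays, where 0 of the 20 were called. The receptor genes Thra and Thrb differed by 0.08 (adjusted p = 0.77) and -0.06 (adjusted p = 0.687).

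The genes that were lower after the hormone included those of DNA replication and mitosis. Of the 21 on the array, 9 were called lower (0.671% over all genes) and 0 higher (median -0.38). All 21 lay below 0 in their brightest probe (15715 of all 33236 genes lay above 0). In hypo pups the median was -0.03 and 1 was called lower (0.68% over all genes). Between hypo+ and hypo pups 8 were called lower (2% over all genes) and 1 higher (1.94%), with a median of -0.36. The gene called lower in hypo pups and higher after the hormone was E2f8. The mean level of the list was -1.44 to -1.05 in control, -1.42 to -1.11 in hypo and -2.05 to -1.30 in hypo+ pups. The groups overlapped, and hypo+ 601 was the lowest pup. The median difference stayed between -0.53 and -0.27 over 17 alternative settings, but the number called fell to 4 with the litter as a random block, to 1 in the Cy5 channel alone and to 0 with the slide as a fixed block, after subtraction of the array median, without the 4 pups with acinar markers and in each sex alone. Within the 5 slides that held both treatments, the hypo+ pup was lower on 4, and the difference ran from -0.44 to 0.04.

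Of the 9 genes, Aurkb, the kinase of the chromosomal passenger complex, was -1.64 to -0.74 in control pups (median -1.31) and -2.25 to -1.65 in hypo+ pups (median -1.87) without overlap, and fell by 0.65 (SE 0.16, adjusted p = 0.0337). Top2a, the topoisomerase of dividing cells, fell by 0.44 (adjusted p = 0.0267), the checkpoint kinase Bub1 by 0.54 (adjusted p = 0.0348) and Cdk1, the kinase that drives entry into mitosis, by 0.38 (adjusted p = 0.0489). The replicative helicase subunits Mcm3, Mcm5, Mcm6 and Mcm7 fell by 0.28, 0.20, 0.40 and 0.35, and Tyms, which makes thymidylate, by 0.48 (adjusted p = 0.0476). Dimmer probes gave -0.11 for Top2a (adjusted p = 0.634 in limma), 0.01 for Cdk1 (adjusted p = 0.966) and -0.42 for Tyms (adjusted p = 0.0598). Genes of cell division outside the list were among the 10 largest decreases. Ect2, which activates RhoA at cytokinesis, was -1.82 to -0.70 in control pups (median -1.20) and -2.85 to -1.55 in hypo+ pups (median -2.04), with a difference of -0.85 (SE 0.20, adjusted p = 0.0293) and an overlap between groups, whereas its dim second probe gave -0.09. The mitotic kinesin Kif20a fell by 0.68 (adjusted p = 0.0322), the guardian of centromeric cohesion Sgo1 by 0.67 (adjusted p = 0.0127), and Shcbp1, a protein of the dividing cell's midbody, by 0.73 (adjusted p = 0.0391). In bulk liver, fewer cells of a type and less RNA per cell cannot be told apart.

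The promoters of Top2a (chr11:99024190-99024439 on the reverse strand) and Cdk1 (chr10:69352913-69353162 on the reverse strand) are shown for the cell cycle homology region TTTGAA, in capitals on either strand, which 5 of the 18 promoters of the list hold (27.8%), as do 16.3% of all promoters. Among the genes that overshot downwards, 16 of 88 promoters hold it (18.2%). Ccnb2, E2f8 and Mcm2, the other list genes with the motif, were not called lower in hypo+ pups.
Top2a: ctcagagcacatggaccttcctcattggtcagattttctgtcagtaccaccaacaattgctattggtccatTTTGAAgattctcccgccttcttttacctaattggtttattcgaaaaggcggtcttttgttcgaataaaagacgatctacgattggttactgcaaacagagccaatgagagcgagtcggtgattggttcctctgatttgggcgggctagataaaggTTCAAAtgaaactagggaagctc
Cdk1: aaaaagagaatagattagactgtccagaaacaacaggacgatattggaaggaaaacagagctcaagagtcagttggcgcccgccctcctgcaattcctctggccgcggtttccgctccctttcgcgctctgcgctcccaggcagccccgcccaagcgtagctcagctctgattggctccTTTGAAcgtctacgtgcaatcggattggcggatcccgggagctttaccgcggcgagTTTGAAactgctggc

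**Figure D3:**
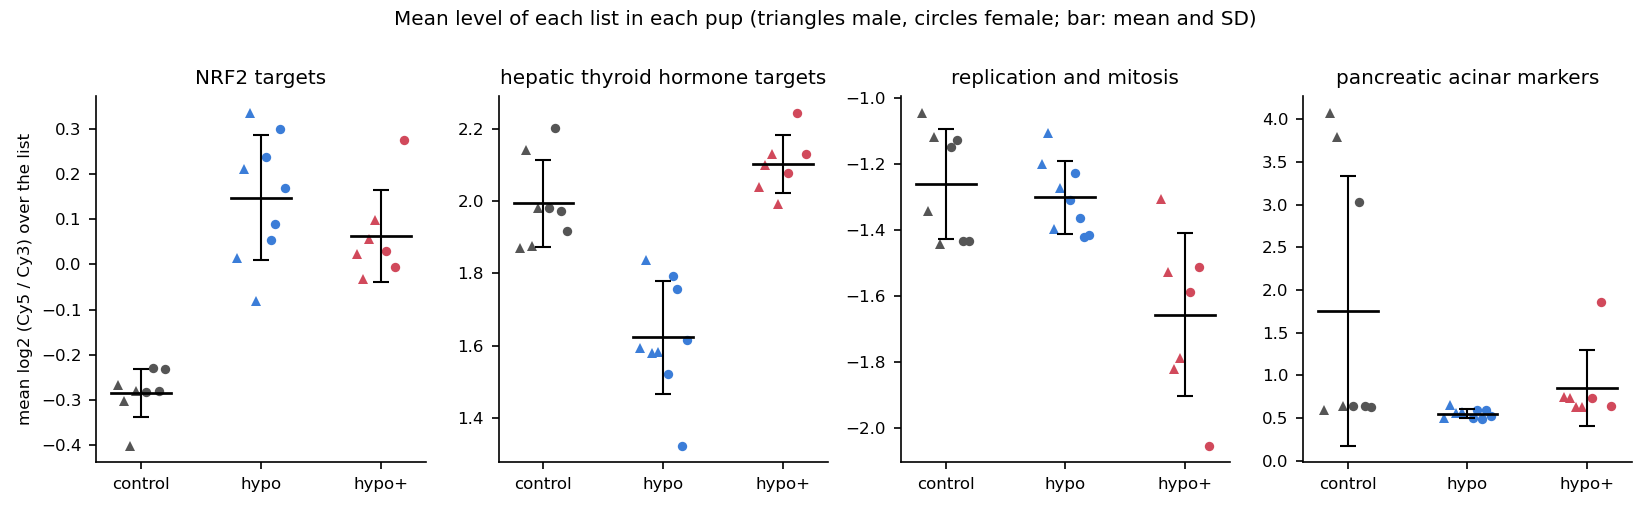
Each symbol is a pup (triangles males, circles females), placed by the mean log2 ratio of Cy5 to Cy3 over a gene list, with the mean and SD of each treatment. NRF2 targets are -0.40 to -0.23 in control and -0.03 to 0.27 in hypo+ pups, the replication list is -1.44 to -1.05 and -2.05 to -1.30, and the acinar markers are high in 3 control pups and 1 hypo+ pup.

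Other genes among the 10 largest decreases were the transcripts BF467941 (-0.73, adjusted p = 0.0165), 4930581F22Rik (-0.72, adjusted p = 0.00301, no overlap) and NM_176995 (-0.68, adjusted p = 0.0489). Fkbp5, the glucocorticoid receptor's cochaperone, fell by 0.66 (SE 0.17, adjusted p = 0.048), was called in 3 of 17 alternative settings, and its other probes gave -0.22 and -0.34. It was the only one of 15 immediate early and glucocorticoid response genes that was called (0.842% higher and 0.671% lower over all genes). Of 18 cholesterol genes, 1 was called, the sterol carrier Stard4, which fell by 0.39 (SE 0.08, adjusted p = 0.0131), and 17 of the 18 were below 0 in their brightest probe (median -0.18, and -0.17 in hypo pups).

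Dio1 and Thrsp, the classic targets, were among the 220 genes that moved back. Dio1 was 5.6 to 6.42 in control pups (median 6.04), 3.47 to 5.07 in hypo pups (median 4.48) and 5.78 to 6.63 in hypo+ pups (median 6.08). Hypo pups lay below all others, and hypo+ pups overlapped with controls. The difference between hypo+ and control was 0.14 with an interval of -0.24 to 0.51 (adjusted p = 0.865), after -1.63 in hypo pups. Thrsp differed from control by -1.52 in hypo pups and -0.13 in hypo+ pups, with an interval of -0.70 to 0.44 that spans both directions. Ly6c1, a surface antigen, changed from -1.16 to 0.12 (interval -0.06 to 0.30), and Etnppl, a phospholyase of phosphoethanolamine, from 1.47 to -0.10 (interval -0.73 to 0.52). E2f8, a repressor of the cell cycle, differed by -1.69 in hypo and -0.69 in hypo+ pups (adjusted p = 0.138, interval -1.15 to -0.23), whereas its brighter probe gave -0.32 in hypo+ pups (adjusted p = 0.154). The transcript 9030619P08Rik changed from -1.39 to -0.15, the class I gene H2-Q1, whose relatives are close in sequence, from -1.12 to -0.40 and Cpsf4l from -1.11 to 0.38. Over the 125 genes that had been lower, the median difference from control was -0.42 in hypo and 0.06 in hypo+ pups, and over the 95 that had been higher it was 0.34 and 0.

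Klf9, a direct target in many tissues, differed from control by -0.43 in hypo (adjusted p = 0.173) and -0.02 in hypo+ pups (adjusted p = 0.979), and neither was called. Hprt, the study's reference gene, differed by -0.05 (interval -0.19 to 0.09). Of 21 CAR and PXR targets 1 was called, the carboxylesterase Ces2c, which rose by 0.51 (SE 0.08, adjusted p = 0.000998) with 0 in hypo pups, although its brighter probe gave 0.19 (adjusted p = 0.553). Of 15 lipogenic genes 2 were called (Me1 and Pnpla3), of 18 guanylate-binding and interferon-stimulated genes 1 (Il15ra, 0.19, adjusted p = 0.0332), and none of 12 bile acid, 11 gluconeogenic and glycolytic and 21 fatty acid oxidation genes. The brighter probe of Il15ra gave 0.28 and was not called (adjusted p = 0.132 in limma). Over all genes, 0.842% were called higher and 0.671% lower.

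**Figure D4:**
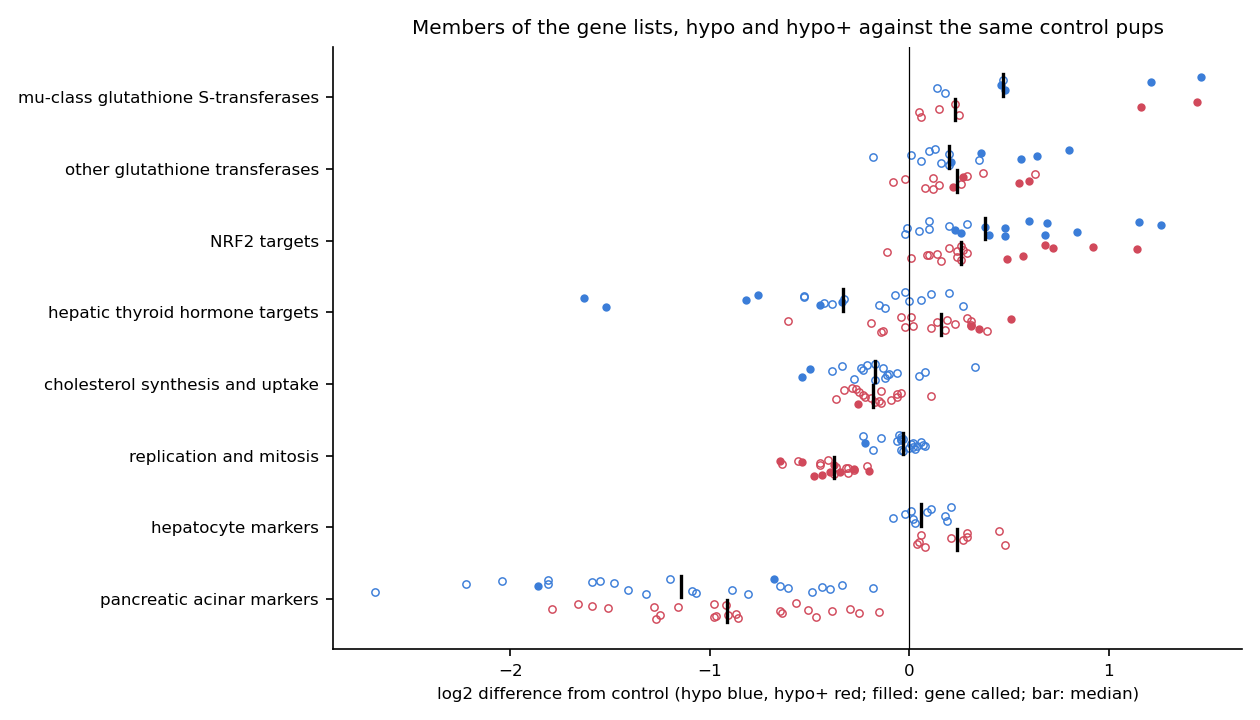
Each circle is a gene of a list, placed by the log2 difference of its brightest probe from control in hypo (blue) and hypo+ (red) pups, filled where the gene was called, with the median as a bar. Medians are 0.38 and 0.26 for NRF2 targets, -0.33 and 0.16 for thyroid hormone targets and -0.03 and -0.38 for replication and mitosis.

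No marker of another cell type was called in hypo+ pups. The acinar list had a median of -0.91 with 0 of 24 genes above 0, which became 0 without the 4 pups named above, and its defining marker Cpb1 differed by -1.79 (adjusted p = 0.38). The hepatocyte markers had a median of 0.24 with 10 of 10 above 0, which became 0 after subtraction of the array median and -0.08 in the Cy5 channel alone. Alb differed by 0.45 (adjusted p = 0.606). Medians were -0.04 for 12 erythroid, -0.03 for 10 Kupffer cell and macrophage, 0.01 for 10 stellate, 0.01 for 6 biliary, 0.01 for 7 endothelial and 0 for 7 lymphocyte markers, and Hba-a1 differed by 0.29 (adjusted p = 0.465). The part of the shift in hepatocyte markers in the other results was not tested.

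The response of the sexes was compared by the interaction of sex and treatment. No gene was called for a difference between males and females (0 genes, limma, smallest adjusted p = 1), with 548 of 41174 probes at an unadjusted p below 0.05, and 0 were called under each of 4 alternative settings. This does not show that the sexes respond alike, as 3 or 4 hypo+ pups of each sex bound the precision. With 1 value per litter, an alternative chosen after seeing the data, 117 genes were called higher and 136 lower, of which 113 and 121 were among those of the model of single pups.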

How the data were processed

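RNA of 34 livers was hybridized to 2-colour Agilent arrays, pup in Cy5 against a universal reference in Cy3, with no dye swap, so that dye bias is shared by all groups. The deposited intensity values are the scanner's median Cy5 and Cy3 signals per spot. The log10 ratios deposited with them were made by the scanner software. The log2 table deposited by the authors holds their processed values, whose scale was inferred from the arrays.

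Median signals were normalized within arrays by loess without background subtraction, control spots and outlier flags left out, and replicate spots averaged (limma 3.58.1, R 4.3.3). A model with treatment and sex was fitted to all 34 arrays, with Benjamini-Hochberg adjustment over 41174 probes at 0.05. A gene is shown by its brightest called probe, otherwise its brightest probe, and lists by the brightest probe. The model and the sorting into classes were run on simulated log ratios, drawn independently for each probe and pup. These held no effect of normalization, slide, litter or acinar RNA, so that they do not test those steps. Of 33541 systematic names, 16806 were named by RefSeq accession, 78 by the study's tables, and 16657 kept as identifiers.

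Named were Gstm1, Auts2 and DXBay18, the 20 largest increases and 10 largest decreases among called genes, called genes of the lists, the 8 largest changes in hypo pups that moved back, and Dio1, Thrsp, Me1, Klf9, Hprt, Alb, Cpb1 and Hba-a1 whatever their values. Other genes (Gstm4, Gstm6, Ugdh, Thra, Thrb, Bmp6, Col5a3 and the genes of the study's list) were named after their values were seen. The members and lists were chosen with earlier results of these data known. Alternatives changed the background correction, normalization, value table, channel, probe filter, probe averaging, samples, sex term and the blocks for slide, scan and litter. Leaving out the 4 pups with acinar markers and the litter means were chosen after seeing the data. The result of 1 named gene is not reported here.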

Additional observations from a re-analysis of the deposited data

Results flagged for a closer look

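Among 216 sets of 7 or 8 pups checked for a sample far from the others, 10 were flagged, and chance flags about 1 in 20. In control pups these were control 522 for Ephx1 (-1.88, next -0.63), Fzd8 (0.23, next 0.74) and Col5a3 (-1.08, next -0.83), control 523 for 4930581F22Rik (3.66, next 3.4) and control 881 for AK046928 (0.94, next 0.75). In hypo+ pups they were hypo+ 601 for Wipf3 (3.13, next 2.65), and hypo+ 543 for Idh3a (0.76, next 0.52) and the acinar gene Cpb1 (3.65, next 0.37). Hypo+ 363 stood apart for Srxn1 (0, next -0.20) and hypo+ 761 for H2-Q1 (3.77, next 4.52). Control 522 and hypo+ 543 are among the pups with acinar markers. The cause was not tested.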

How the results depend on the processing

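No call of a named gene changed direction under any alternative, and the direction of the other called genes was not compared. The median of the hepatocyte markers went from 0.24 to -0.08 in the Cy5 channel alone. Counts are given as genes called, remaining altered, overshooting and moved back, which were 503, 42, 275 and 220. They were 8, 3, 5 and 23 after subtraction of the array median, 9, 2, 7 and 15 in males, 7, 3, 4 and 29 in females, 181, 25, 128 and 278 with the slide as a fixed block, 71, 11, 52 and 149 without the 4 pups with acinar markers, and 253, 18, 169 and 99 with litter means. Fewer samples enter the models of a single sex. With the slide as a random block 69 remained and 336 moved back, and with normexp 139 moved back. The scanner's ratios called 310, the Cy5 channel alone 177 with 98 overshooting, and the litter as a random block 327. The higher share of calls was 55.7%, as against 100% after median subtraction, 66.3% in the authors' table and 71.2% in the Cy5 channel alone. Leaving out 1 pup gave 183 to 625 called, 21 to 47 remaining, 112 to 334 overshooting and 180 to 239 moved back. The number called fell below 503 by more than 1.5 times without control 881 (263), 522 (246), 523 (191) or 831 (273), or hypo+ 761 (280), 363 (241) or 601 (183). The cause was not tested. Gstm1, Gstm3, Auts2 and DXBay18 were called under all 17 alternatives and whichever pup was left out. The values of single genes and lists were also compared under the alternatives that leave out no single pup. A called gene was counted as the same if it stayed called. An uncalled gene was counted as the same if it stayed uncalled within the control SD of its main value. A list, which has no call, was the same if its median stayed within the control SD. By this rule 1633 values were the same, 593 lost the call, 17 moved by more than the SD and 1 gained a call. The animal numbers differ between treatments and pair no pups, and the slide, which held a control and a hypo+ pup in 5 instances, was the pairing used in the fixed block above (181 called).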
